A study of Mus musculus with 18 samples.

Results

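Protein kinase A (PKA) is the main kinase that cAMP switches on. In the resting enzyme a dimer of regulatory subunits holds a pair of catalytic subunits silent, cAMP binds the regulatory subunits, and the freed catalytic subunits phosphorylate their targets. In fat cells these targets include perilipin and hormone-sensitive lipase, which start lipolysis, and in brown fat the same route leads to heat production. Type II regulatory subunits, above all RIIβ, are the form for which adipose tissue is known. Small heat-stable inhibitor proteins (PKIs) bind the catalytic subunit with a false substrate and carry it out of the nucleus, and CREB is the transcription factor that the kinase activates there.

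Transcripts of 10 genes were followed, out of 52093 symbols measured: the catalytic subunit genes Prkaca and Prkacb, the regulatory subunit genes Prkar1a, Prkar1b, Prkar2a and Prkar2b, the inhibitor genes Pkia, Pkib and Pkig, and Creb1. They were chosen by name. Each had a single row in the data, and all 10 passed the filter of a mean of at least 10 reads in each comparison of tissues, Pkib against BAT only through the white adipocytes. The study sequenced this RNA to find receptors coupled to Gi proteins, which lower cAMP, in fat. The samples were 18 RNA-seq libraries from wild-type male C57BL/6 mice 16 weeks of age, which had been fed 12 weeks on a diet rich in fat (HFD). All 3 groups share that genotype and diet, although a treatment field of the labels names regular chow. There were 6 libraries each of adipocytes from inguinal white adipose tissue (iWAT), of adipocytes from epididymal white adipose tissue (eWAT) and of brown adipose tissue (BAT). The white adipocytes were the cells that floated after collagenase digestion, whereas BAT was whole tissue frozen at once, although a label calls it BAT adipocytes, so preparation and depot cannot be told apart in any comparison with BAT. The white depots ran in sequencing lanes 1 and 2 and BAT in lanes 3 and 4, so lane and BAT cannot be told apart either.

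Reads on annotated rows numbered 24655056 to 42518483 per library. In BAT, the 10 highest rows took 43.6 to 54.3% of these reads, against 9.94 to 20.5% in the white adipocytes. Markers that define adipocytes were high in all 3 groups, and brown adipocyte markers set BAT apart (summed RPKM of 6 genes 2231 to 3026, against 2.67 to 17.1 in the white libraries). Macrophage markers were high in the eWAT libraries, where the summed RPKM of 8 genes was 2698 to 4317. That sum was 475.6 to 923.5 in iWAT and 24.9 to 49.2 in BAT. In such bulk samples, fewer cells of a type and less RNA per cell cannot be told apart. RPKM, the read count divided by transcript length and by a read total of the library, is a level per length and is used here to compare genes. The total that the RPKM values imply lay below the reads on rows in every BAT library (22935346 against 27402247 in sample 16). In every white library it lay above them (41145280 against 37438994 in eWAT sample 1). RPKM and unscaled counts can therefore differ in comparisons with BAT. Differences between tissues are log2 fold changes (log2FC) from edgeR's quasi-likelihood test on read counts with TMM scaling, with Benjamini-Hochberg adjusted p-values over all genes tested.

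A short stretch of each regulatory subunit sits in the active site of the catalytic subunit, and the inhibitors carry a similar one. This stretch is one feature that sets the type II subunits apart from those of Prkar1a and Prkar1b. Its coding bases in the mouse transcripts (GENCODE vM1, mm9 build, coding strand, 5′ to 3′) are shown because the results turn on the balance between these genes. Capitals mark the 5 codons of the stretch, and the fourth of them codes for the residue that a true substrate would offer for phosphorylation.
Prkar1a: cgacggCGCCGAGGTGCTATCagtgct
Prkar1b: cgtcgcCGGCGGGGCGGTGTGagtgct
Prkar2a: tttactAGACGAGTATCAGTCtgtgca
Prkar2b: ttcacaAGGCGTGCCTCGGTCtgtgca
Pkia: acaggtAGAAGAAATGCAATAcatgat
Pkib: gcaggcCGCCGCAATGCCTTAcccgac
Pkig: acaggcCGTCGGAATGCAGTCcctgac
The fourth codon codes for alanine in Prkar1a and in all 3 inhibitors, and for glycine in Prkar1b. In both type II genes it codes for serine, a residue that the catalytic subunit can phosphorylate. The stretch lies in coding exon sequence: exon 3 of 11 in Prkar1a (chr11:109521415-109521441, plus strand) and in Prkar1b (chr5:139584480-139584506, minus strand). In Prkar2b (chr12:32678641-32723505, minus strand) and Prkar2a (chr9:108616621-108619201, plus strand) it is spliced from exons 2 and 3, so these spans include an intron. In Pkia it lies in exon 2 of 3 (chr3:7437413-7437439), in Pkib in exon 4 of 5 (chr10:57447973-57447999) and in Pkig in exon 3 of 4 (chr2:163546935-163546961), all on the plus strand.

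Prkar2b (RIIβ, Entrez gene 19088, mm9 chr12:32643341-32746161, minus strand) was the highest of the 10 genes in each tissue by mean RPKM. In iWAT adipocytes its lowest, median and highest values were 163.1, 212.3 and 264.9 RPKM. In eWAT adipocytes they were 35.9, 84.3 and 118.8 RPKM, and in BAT 214.3, 247.6 and 285.0 RPKM. By mean level it ranked 170 among all symbols in iWAT, 633 in eWAT and 115 in BAT. Every eWAT library thus lay below every iWAT and BAT library, while iWAT and BAT overlapped. Its lead over the next member had no overlap between libraries in iWAT and BAT (next was Prkaca). In eWAT the libraries of Prkar2b overlapped those of Prkar1a. The plot of all 10 genes by library shows these levels together.

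**Figure D1:**
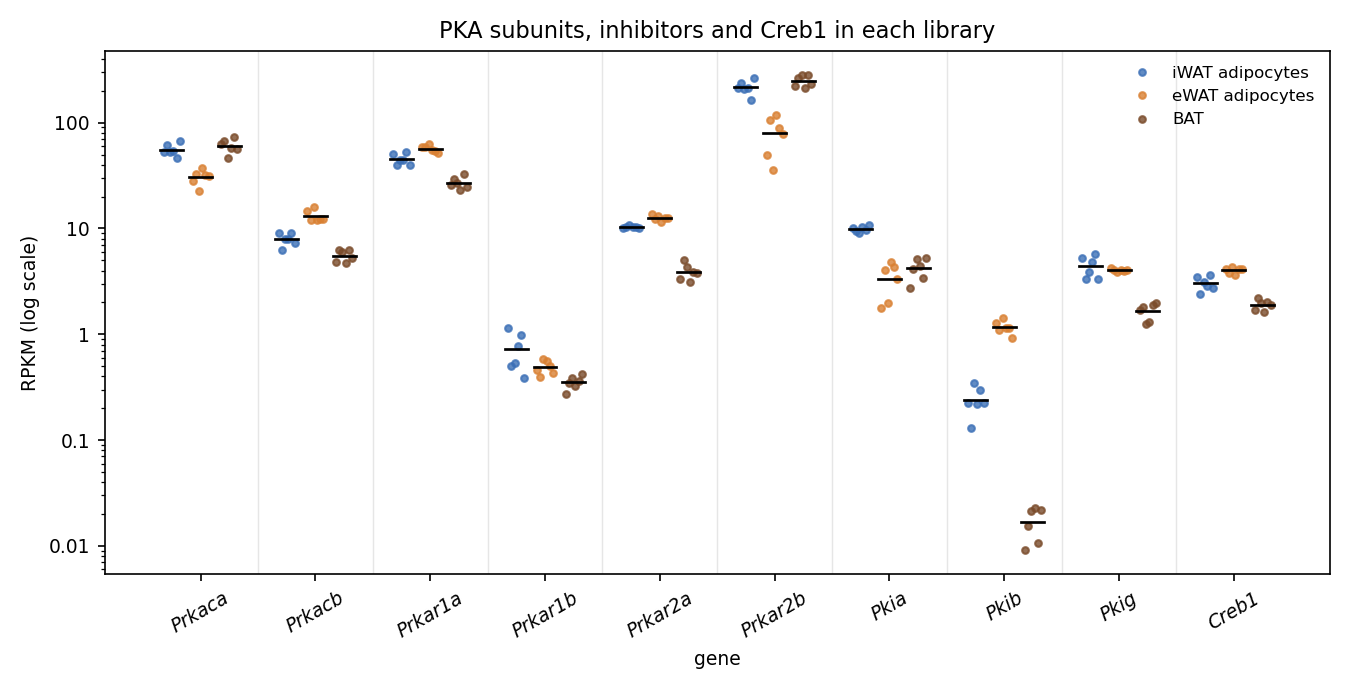
RPKM (log scale) of the 10 genes in each of the 18 libraries, with 6 points for each tissue and a bar at the mean. Prkar2b stands at the top in every tissue but drops to 79.9 ± 32.2 RPKM in eWAT adipocytes, and Pkib spans the widest range, from 1.17 RPKM in eWAT adipocytes to 0.0169 RPKM in BAT.

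Between the white depots, Prkar2b was 2.72-fold higher in iWAT than in eWAT adipocytes (log2FC 1.45 ± 0.26 SE, n = 6 per tissue, edgeR adjusted p = 0.000294). The other regulatory genes did not share this direction. Prkar1a (RIα, Entrez gene 19084), the regulatory subunit made by nearly every cell type, was instead 1.25-fold higher in eWAT (log2FC -0.32 ± 0.07 SE, edgeR adjusted p = 0.00126). Its levels were 45.4 ± 5.20 RPKM in iWAT and 56.8 ± 3.86 RPKM in eWAT (SD, n = 6), and the libraries overlapped. Prkar2a (RIIα, Entrez gene 19087), the broadly expressed partner of RIIβ, was likewise 1.22-fold higher in eWAT, at 12.6 ± 0.794 RPKM against 10.3 ± 0.295 RPKM (SD, n = 6; edgeR adjusted p = 0.000419). Its libraries did not overlap. Prkar1b (RIβ, Entrez gene 19085), the form known from brain, was below 1 RPKM on average in all 3 tissues. It was 1.48-fold higher in iWAT (log2FC 0.57 ± 0.23 SE, edgeR adjusted p = 0.0387), with overlapping libraries. That call was lost when iWAT sample 1, 4 or 5 or eWAT sample 1, 2, 5 or 16 was left out (log2FC 0.42 to 0.58, edgeR adjusted p = 0.056 to 0.0877), without TMM scaling (edgeR adjusted p = 0.0826), with the sample number as a replicate block (edgeR adjusted p = 0.0534), and with limma on log2(RPKM + 0.1) or log2(RPKM + 1) (limma adjusted p = 0.102 and 0.0917).

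The catalytic genes split in the same way. Prkaca (Cα, Entrez gene 18747, mm9 chr8:86496877-86520344, plus strand), the catalytic subunit found in most tissues, ran from 46.0 to 66.7 RPKM in iWAT (median 53.7). In eWAT it ran from 22.5 to 36.9 RPKM (median 31.6), below every iWAT library. The fold was 1.83 higher in iWAT (log2FC 0.88 ± 0.13 SE, edgeR adjusted p = 6.12e-05). Prkacb (Cβ, Entrez gene 18749, mm9 chr3:146392543-146475954, minus strand), its less abundant relative, went the other way. It ran from 6.31 to 9.05 RPKM in iWAT (median 7.90) and from 11.9 to 15.9 RPKM in eWAT (median 12.3), again without overlap. It was 1.66-fold higher in eWAT (log2FC -0.73 ± 0.09 SE, edgeR adjusted p = 1.22e-05).

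Among the inhibitors, Pkia and Pkib went in opposite directions between the white depots. Pkia (PKIα, Entrez gene 18767), the form first known from muscle, was 9.10 to 10.8 RPKM in iWAT and 1.75 to 4.78 RPKM in eWAT, without overlap. It was 2.97-fold higher in iWAT (log2FC 1.57 ± 0.22 SE, edgeR adjusted p = 3.95e-05). Pkib (PKIβ, Entrez gene 18768) was 0.129 to 0.345 RPKM in iWAT and 0.930 to 1.43 RPKM in eWAT. This 4.85-fold excess in eWAT was the widest difference of the 10 genes between the white depots (log2FC -2.28 ± 0.18 SE, edgeR adjusted p = 4.18e-07). Pkig (PKIγ, Entrez gene 18769) did not pass the test, at 4.39 ± 1.02 RPKM in iWAT and 4.04 ± 0.115 RPKM in eWAT (SD, n = 6; log2FC 0.12 ± 0.11 SE, edgeR adjusted p = 0.354). Creb1 (Entrez gene 12912) was 1.32-fold higher in eWAT, at 4.02 ± 0.255 RPKM against 3.05 ± 0.469 RPKM (SD, n = 6; edgeR adjusted p = 0.00063), and its libraries overlapped.

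In all, 9 of the 10 genes passed the test between the white depots, 4 higher in iWAT and 5 higher in eWAT. The background was high: 68.6% of all 19623 genes tested passed, 34.1% higher in iWAT and 34.5% higher in eWAT. For 6 of the 10, the RPKM of the depots did not overlap, against 44.0% of all genes tested.

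These differences moved with the cell type markers. All 7 adipocyte markers were higher in iWAT than in eWAT (summed RPKM 11450 to 16020 against 2570 to 7946), and all 8 macrophage markers were higher in eWAT. Other lists moved too. All 5 endothelial markers were higher in iWAT (summed RPKM 107.4 to 307.4 against 36.5 to 78.1), as were 3 of 4 of smooth muscle and pericytes (67 to 221.3 against 20.5 to 54.5) and 3 of 3 of red blood cells (116.3 to 562.9 against 107.4 to 244.5). So were 5 of 6 brown adipocyte, 4 of 6 skeletal muscle and 3 of 6 nerve and Schwann cell markers. The eWAT libraries also differed from each other. Samples 1 and 3 had the lowest Prkar2b of the 6 (49.7 and 35.9 RPKM, others 78.8 to 118.8), together with the lowest Adipoq (199.3 and 149.9 RPKM, others 395.7 to 578.9). They also had the highest Cd68, a macrophage marker (679.6 and 681.0 RPKM, others 456.7 to 546.8). Prkaca and Pkia were likewise lowest in samples 1 and 3, whereas Prkacb, Prkar1a, Prkar2a and Pkib were highest there. Within iWAT, sample 5 had the lowest Prkar2b (163.1 RPKM) and the lowest Adipoq (840.2 RPKM), and sample 16 the highest of both (264.9 and 1297 RPKM). The endothelial marker Cdh5 was highest in iWAT samples 1 and 5 (151.1 and 177.2 RPKM, others 62.5 to 114 RPKM). So were Col3a1 of fibroblasts (79.3 and 95.9 RPKM), Rgs5 of pericytes (137.8 and 188.8 RPKM) and Hba-a1 of red blood cells (216.4 and 277.3 RPKM). Prkar1b (1.15 and 0.974 RPKM, others 0.385 to 0.780) and Pkig (5.24 and 5.75 RPKM, others 3.32 to 4.78) were also highest in these samples. The same held for Prkar1a (50.4 and 52.5 RPKM), Prkacb (9.05 and 8.99 RPKM) and Creb1 (3.50 and 3.65 RPKM). Markers of several cell types thus rose together there. The part of cell composition in the differences between depots was not tested.

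Set against the adipocyte markers of its own library, Prkar2b was at nearly the same place in both white depots. The log2 RPKM of Prkar2b minus the mean log2 RPKM of the 7 markers was -1.63 ± 0.08 in iWAT and -1.69 ± 0.08 in eWAT (SD, n = 6), a difference of 0.06 on the log2 scale, and the libraries overlapped. Against single markers, the difference of iWAT minus eWAT ran from -0.21 (Plin1) to 0.40 (Pparg) and was above 0 for 4 of the 7. Pkia behaved alike on this scale, with a difference of 0.18 and overlapping libraries. Prkaca was lower in iWAT on this scale, by 0.61, without overlap. The remaining genes apart from Prkar1b, whose libraries overlapped, were also lower in iWAT per adipocyte marker, from a difference of -1.39 for Pkig to -3.82 for Pkib. This scale was chosen after the values were seen and is given as a description.

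**Figure D2:**
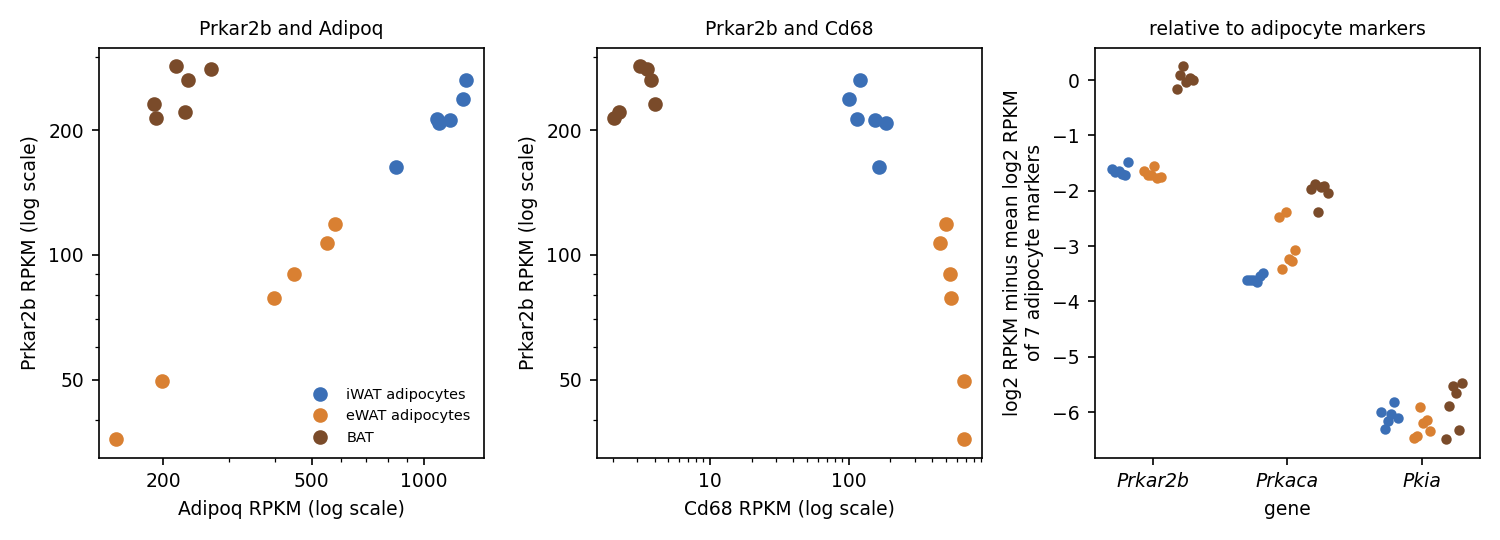
Left and middle, Prkar2b RPKM against Adipoq and Cd68 RPKM in the 18 libraries (log scales). Right, log2 RPKM of Prkar2b, Prkaca and Pkia minus the mean log2 RPKM of 7 adipocyte markers. On that scale Prkar2b lies at -1.63 in iWAT, -1.69 in eWAT and 0.03 in BAT on average.

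In the comparisons with BAT, scaling decided the direction of some members. TMM scaling gave BAT lower factors than the white adipocytes (mean 0.745 against 1.35 with iWAT, and 0.732 against 1.37 with eWAT). Without scaling beyond the total count, the median log2FC of all genes moved from 0.01 to 0.87 in iWAT against BAT, and from -0.02 to 0.89 in eWAT against BAT. The share of calls that were higher in the white adipocytes then moved from 50.6 to 81.8% and from 49.8 to 76.1%. The values below are therefore relative to the median gene, and those that turn with the scaling are named.

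Prkar2b was 1.75-fold lower in iWAT than in BAT after TMM scaling (log2FC -0.81 ± 0.13 SE, edgeR adjusted p = 3.81e-05), but 0.04 without scaling (edgeR adjusted p = 0.759). Prkaca gave the same picture, with a log2FC of -0.72 ± 0.12 SE (edgeR adjusted p = 3.81e-05) that turned to 0.13 without scaling (edgeR adjusted p = 0.322). In RPKM both genes overlapped between iWAT and BAT. Set against the adipocyte markers, Prkar2b was 1.66 lower in iWAT than in BAT on the log2 scale without overlap, and it was lower against each of the 7 single markers, by 0.28 (Pparg) to 3.91 (Lep).

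Of the other members, Prkar2a, Pkig and Pkia were higher in iWAT than in BAT under both scalings. Prkar2a was 1.74-fold higher (10.3 ± 0.295 against 3.90 ± 0.682 RPKM, SD, n = 6; edgeR adjusted p = 5.67e-07), and Pkig 1.73-fold higher (4.39 ± 1.02 against 1.65 ± 0.306 RPKM, SD, n = 6; edgeR adjusted p = 5.01e-05). Pkia was 1.54-fold higher, with BAT at 2.75 to 5.23 RPKM (edgeR adjusted p = 0.00138). Pkib had 47 to 140 reads per iWAT library and only 4 to 10 per BAT library, at 0.00908 to 0.0229 RPKM in BAT. It entered the test only through iWAT, so its call is not counted as support and no fold is given. Prkacb (log2FC -0.10), Prkar1a (0.14), Prkar1b (0.40) and Creb1 (0.07) did not pass the test with TMM scaling. All 4 were called higher in iWAT without scaling, which turned the sign of Prkacb to a log2FC of 0.76.

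Leaving Pkib aside, 5 of 9 genes were called between iWAT and BAT, 3 higher in iWAT and 2 higher in BAT. The background was 75.3% of 19745 genes, 38.1% higher in iWAT and 37.2% higher in BAT. Without scaling, 7 of the 9 were called, all higher in iWAT, against a background of 69.4% higher in iWAT and 15.5% higher in BAT. RPKM did not overlap for 6 of the 9, against 65.3% of all genes.

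Against eWAT adipocytes, BAT had more transcript of both main subunits under either scaling. Prkar2b was 4.71-fold lower in eWAT than in BAT (log2FC -2.23 ± 0.24 SE, edgeR adjusted p = 4.89e-07), and the log2FC was -1.33 without scaling. Prkaca was 2.97-fold lower (log2FC -1.57 ± 0.12 SE, edgeR adjusted p = 8.23e-09), and -0.66 without scaling. BAT held 46.0 to 72.5 RPKM of Prkaca, above every eWAT library.

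Other subunits and inhibitors were higher in eWAT than in BAT under both scalings. Prkacb was 1.58-fold higher (13.2 ± 1.69 against 5.55 ± 0.714 RPKM, SD, n = 6; edgeR adjusted p = 1.55e-05). Prkar1a was 1.40-fold higher, with 23.1 to 32.5 RPKM in BAT (edgeR adjusted p = 5.84e-05), and Prkar2a 2.15-fold higher (edgeR adjusted p = 2.28e-08). Pkig was 1.63-fold higher (edgeR adjusted p = 3.25e-06), and Creb1 1.41-fold higher, with 1.61 to 2.22 RPKM in BAT (edgeR adjusted p = 1.6e-05). Pkib, with 403 to 699 reads per eWAT library, again entered the test only through the white adipocytes. Pkia was 1.90-fold lower in eWAT with TMM scaling (log2FC -0.92 ± 0.25 SE, edgeR adjusted p = 0.00292) and did not differ past the threshold without it (log2FC 0.00, edgeR adjusted p = 0.993). Prkar1b did not pass with TMM scaling (log2FC -0.14, edgeR adjusted p = 0.405), and turned to 0.77 without scaling (edgeR adjusted p = 0.000199).

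Leaving Pkib aside, 8 of 9 genes were called between eWAT and BAT, 5 higher in eWAT and 3 higher in BAT, where 82.5% of 20076 genes were called, 41.1% higher in eWAT and 41.4% higher in BAT. Without scaling it was again 8, with 6 higher in eWAT and 2 higher in BAT, beside 64.6 and 20.2% of all genes. RPKM did not overlap for 7 of the 9, against 68.4% of all genes. The 3 comparisons share samples in pairs and are not independent of each other. Macrophage markers (8 of 8) were higher in both white depots than in BAT, and skeletal muscle markers (6 of 6) were higher in BAT. The summed RPKM of the muscle markers was 9.92 to 114.5 in BAT, 8.16 to 23.2 in iWAT and 2.01 to 7.11 in eWAT. The BAT and iWAT ranges thus overlapped. Muscle RNA varied within BAT, with Acta1 at 0.806 RPKM in sample 2 and 45.8 RPKM in sample 5. Red blood cell markers (3 of 3 in both comparisons) were higher in BAT as well, at a sum of 510.6 to 1123 RPKM. Endothelial markers (5 of 5), smooth muscle and pericyte markers (3 of 4) and nerve and Schwann cell markers (4 of 6) were higher in BAT than in eWAT, and 3 of 5 fibroblast markers were higher in each white depot than in BAT. Their part in the differences from BAT was not tested.

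**Figure D3:**
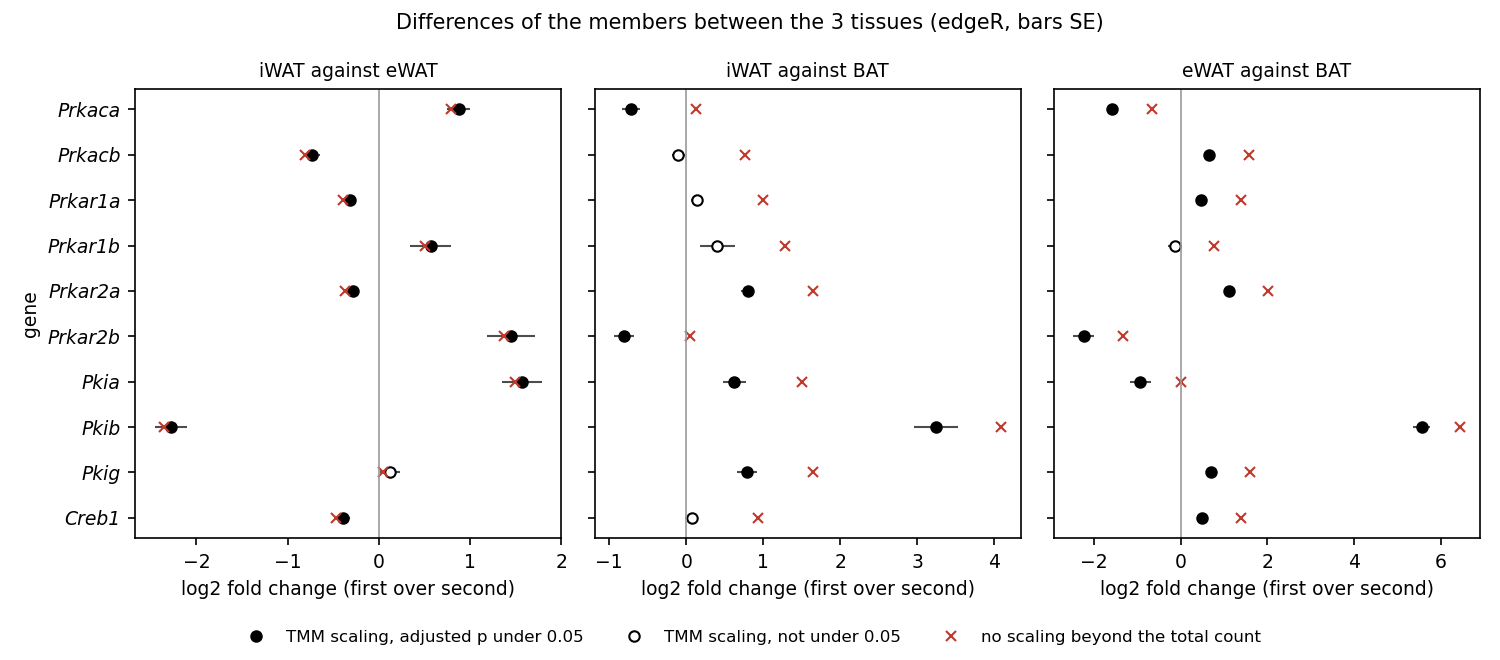
Log2 fold change of the 10 genes in the 3 comparisons, first tissue over second, with bars of 1 SE (Pkib against BAT is drawn on 4 to 10 reads per BAT library). Filled points passed an adjusted p of 0.05 with TMM scaling, open points did not, and crosses give the value without scaling. The crosses lie close to the points in iWAT against eWAT and to the right of them against BAT, where Prkar2b moves from -0.81 to 0.04 with iWAT.

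Ratios of 2 genes within a library do not depend on how libraries are scaled. The ratio of Prkar2b to Prkar1a, RIIβ over RIα, was 4.88 ± 1.25 in iWAT, 1.43 ± 0.599 in eWAT and 9.24 ± 0.709 in BAT (SD, n = 6, RPKM). Libraries of the 3 tissues did not overlap, with ranges of 3.11 to 6.61, 0.571 to 2.13 and 8.66 to 10.6. All 3 differences passed a two-sided exact permutation test (adjusted p = 0.00278 over 9 tests), and the smallest unadjusted p that 6 against 6 allows is 0.00216. In eWAT samples 1 and 3 the ratio was below 1, at 0.851 and 0.571, so that Prkar1a exceeded Prkar2b there.

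The ratio of Prkacb to Prkaca ran in the reverse order of tissues. It was 0.449 ± 0.143 in eWAT, 0.146 ± 0.0352 in iWAT and 0.0938 ± 0.0196 in BAT (SD, n = 6). White depots differed 3.05-fold, and eWAT and BAT 4.69-fold (exact permutation, adjusted p = 0.00278 for both). Between iWAT and BAT the difference was 1.54-fold with overlapping libraries (exact permutation, adjusted p = 0.0146). The ratio of Prkar2a to Prkar1a was 0.229 ± 0.0258 in iWAT and 0.222 ± 0.0159 in eWAT (SD, n = 6), a difference that did not pass (exact permutation, adjusted p = 0.632). It was lower in BAT, at 0.144 ± 0.0191 (exact permutation, adjusted p = 0.00278 against each white depot).

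As a share of the summed RPKM of the 4 regulatory genes, Prkar2b made up 79.0 ± 4.23% in iWAT, 51.4 ± 12.4% in eWAT and 88.8 ± 0.633% in BAT (SD, n = 6). By reads, without regard to length, Prkar2b made up 42.9% in eWAT on average and Prkar1a 44.2%. The medians were 47.0% for Prkar2b and 40.4% for Prkar1a, and Prkar1a led by reads only in eWAT samples 1 and 3. The Prkar2b share of RPKM in single libraries ran from 31.9 to 63.7% in eWAT, and only from 88.3 to 90.0% in BAT. Prkar1a took most of the rest, with 16.95, 39.5 and 9.65% on average. Of the catalytic RPKM, Prkaca made up 87.4, 69.5 and 91.5% on average. The row of Prkacb is longer (8601 bases, against 2315 for Prkaca). By reads Prkacb led in eWAT, with 61.4% on average against 38.6% for Prkaca. Among the inhibitors, Pkia led in iWAT (68.4%) and BAT (70.8%) and Pkig in eWAT (47.9%), where Pkib reached 14.0 ± 3.65%. Pkib has the longest row of the 3 inhibitors (13345 bases, against 3741 for Pkia and 3993 for Pkig), and by reads its share in eWAT was 35.5%.

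The summed families were compared as ratios within each library. Regulatory over catalytic RPKM was 4.29 ± 0.104 in iWAT, 3.40 ± 0.450 in eWAT and 4.34 ± 0.881 in BAT (SD, n = 6). In iWAT it stayed within 4.12 to 4.43, while Prkar2b itself ranged from 163.1 to 264.9 RPKM. The summed inhibitors over the summed catalytic genes came to 0.231 ± 0.0359 in iWAT, 0.195 ± 0.0157 in eWAT and 0.0915 ± 0.0251 in BAT (SD, n = 6). Every BAT library lay below every white library in this ratio. These are ratios of transcripts, given without a test, and do not measure proteins.

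**Figure D4:**
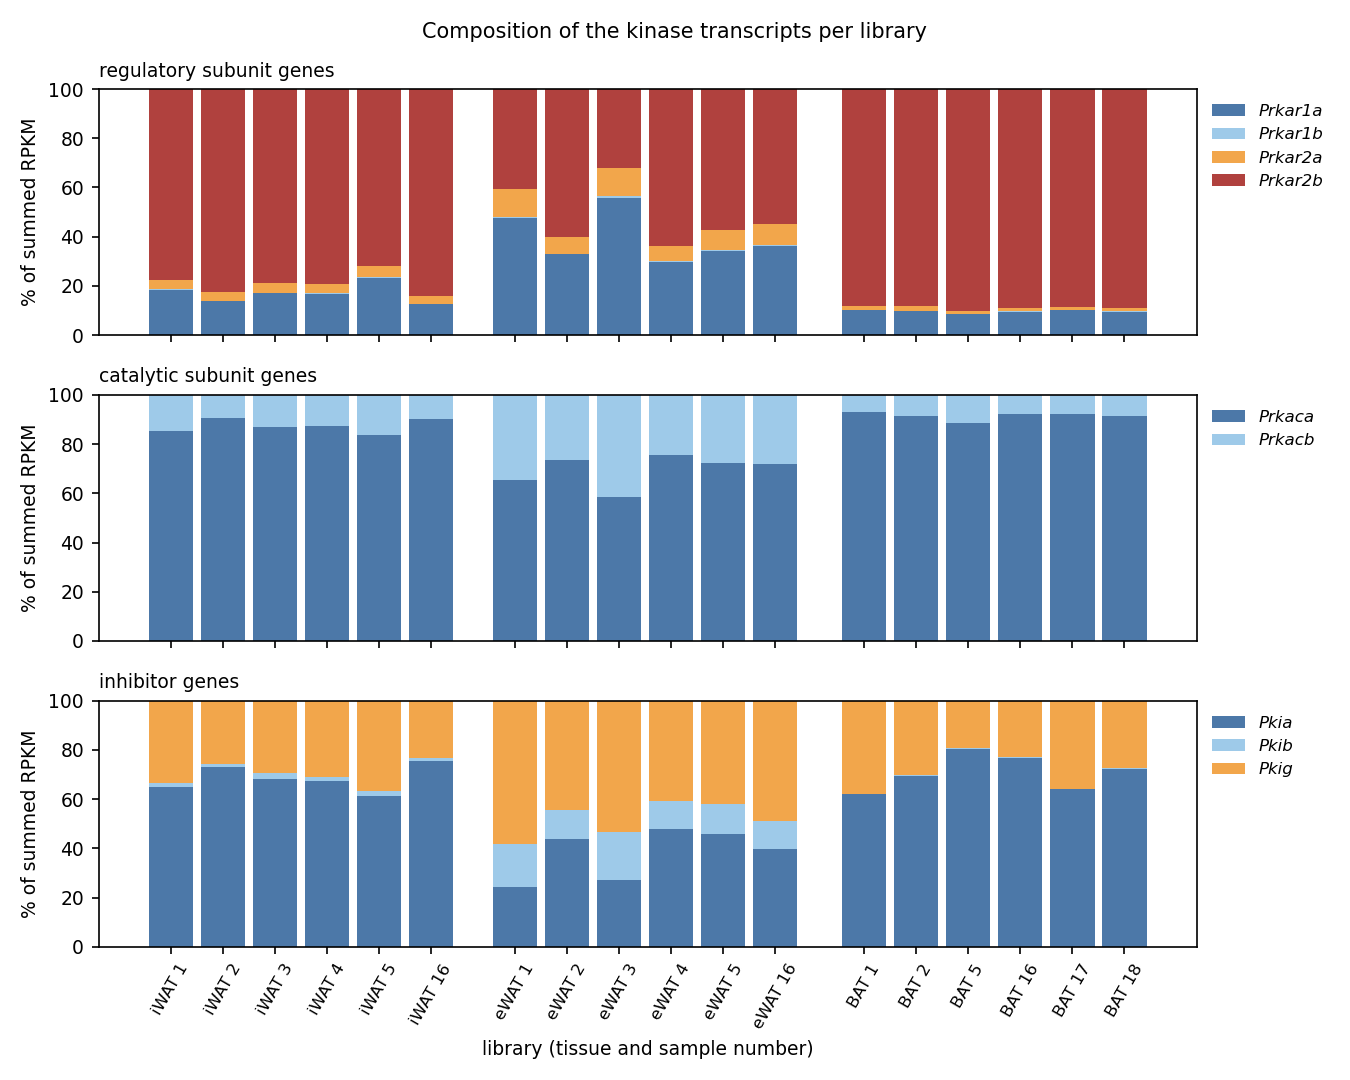
Share of each gene in the summed RPKM of its family, for each library, with regulatory, catalytic and inhibitor genes in the 3 panels. Prkar2b holds 88.3 to 90.0% of the regulatory panel in every BAT library and falls to 31.9% in eWAT sample 3, where Prkacb also has its highest share of the catalytic panel (41.4%).

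The order of the 10 genes was similar at the top and differed lower down. In iWAT, Prkar2b was followed by Prkaca and Prkar1a, whose libraries overlapped, then by Prkar2a and Pkia, which overlapped too. In eWAT, Prkar1a stood above Prkaca without overlap, Prkacb and Prkar2a overlapped, and Pkig, Creb1 and Pkia were neighbours that overlapped. In BAT, Prkar2b, Prkaca and Prkar1a were each apart from the next gene, and Prkacb, Pkia and Prkar2a were neighbours whose libraries overlapped. Prkar1b was lowest in eWAT, and Pkib was lowest in iWAT and BAT.

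Some rows of these genes overlap rows of other genes, and the library kit did not keep the strand, so such counts are less certain. The row of Pkig overlaps that of Ada, adenosine deaminase, by 2374 bases on the other strand, and the row of Prkar1b overlaps that of Heatr2 by 471 bases. In both cases the GENCODE exons of the pair share 0 bases. The remaining overlaps of the 10 genes are with cDNA clones and predicted loci, and rows of Prkar1a and Pkib overlap no other row.

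By the likeness of log2(RPKM + 0.1) over the 18 libraries, the genes closest to Prkar2b among 18591 were Tspan12, a tetraspanin (Pearson r = 0.994), and Mccc1, an enzyme of leucine breakdown (r = 0.993). Tspan12 was 57.6, 23.9 and 64.3 RPKM and Mccc1 7.81, 3.27 and 8.62 RPKM in iWAT, eWAT and BAT on average. Closest to Prkaca were Akt2, a kinase of insulin signaling (r = 0.973), and Pnpla2, the first lipase of lipolysis (r = 0.971). Pnpla2 was 316.8, 134.2 and 376.3 RPKM in the 3 tissues. Closest to Pkib were Acer3 and Glipr1 (both r = 0.994), and Glipr1 was 1.91, 12.2 and 0.365 RPKM. The points of these correlations share 3 tissues, so they mostly follow differences between tissues, and no test was made.

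CREB binds the cAMP response element, whose full letters are TGACGTCA, with TGACG as a half-site that the full element contains. Both strands were searched. RefSeq promoters (GRCm38.p6, 250 bases before to 50 after a start) were given for 9 of the 10 genes, in 25 windows. The full element occurred in 2 windows, both of Prkar1a and overlapping, so they hold the same copy, against 1.79% of all 32851 promoters. A half-site occurred in 8 of the 25 windows (32.0%), against 20.8% of all promoters, and neither window of Prkar2b held either. The Prkar1a window at chr11:109650699-109650998 (GRCm38.p6, plus strand) is shown because it carries the full element, at position -49 from the start. Capitals mark the full element and a further half-site.
Prkar1a promoter: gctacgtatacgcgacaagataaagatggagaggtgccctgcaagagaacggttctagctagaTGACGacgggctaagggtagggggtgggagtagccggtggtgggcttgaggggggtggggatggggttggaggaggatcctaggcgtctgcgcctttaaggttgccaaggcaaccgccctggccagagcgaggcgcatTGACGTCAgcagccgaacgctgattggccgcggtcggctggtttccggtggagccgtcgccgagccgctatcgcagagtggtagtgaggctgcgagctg
A match of letters is a description of the window and says nothing of binding in these cells.

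The other genes of the pathway were taken as 6 lists, counted against the same backgrounds as above. Of all genes tested, 34.1% were higher in iWAT and 34.5% in eWAT between the white depots. Against BAT, 38.1% were higher in iWAT and 37.2% in BAT, and 41.1% were higher in eWAT and 41.4% in BAT. Without scaling these shares became 69.4 and 15.5%, and 64.6 and 20.2%. A-kinase anchoring proteins hold the regulatory subunits at places in the cell, and 22 of 26 were tested. Between the white depots, 9 were higher in iWAT, 5 were higher in eWAT and 8 did not pass (median log2FC 0.17, against 0.00 for all genes). Nbea (log2FC 1.41) and Myrip (1.18) were furthest toward iWAT, and Ezr, or ezrin (-1.20), and Acbd3 (-0.59) toward eWAT. Against BAT, 12 were higher in iWAT and 7 in BAT, and 11 were higher in eWAT and 8 in BAT. Without scaling these became 15 and 2, and 14 and 3. Akap1, which brings PKA to the outer membrane of mitochondria, was highest in BAT, with a log2FC of -2.67 with iWAT and of -3.59 with eWAT. Its level was 44.3 ± 8.74 RPKM in BAT, 10.6 ± 0.683 RPKM in iWAT and 5.53 ± 1.08 RPKM in eWAT (SD, n = 6). Akap5 was also furthest toward BAT (log2FC -3.15 and -3.61), at 0.585 RPKM at most on average. Akap5 ran only from 0.02877 to 0.1635 RPKM in iWAT and from 0.0451 to 0.1208 RPKM in eWAT. These low levels make the folds of Akap5 uncertain, although its calls are among the counts above. Rab32, an anchor known from mitochondria as well, was 22 ± 2.73 RPKM in iWAT, 21.4 ± 2.87 RPKM in eWAT and 1.38 ± 0.249 RPKM in BAT (SD, n = 6). Its log2FC was 3.39 for iWAT over BAT and 3.37 for eWAT over BAT. The other named anchors toward the white depots were Ezr (3.07 for eWAT over BAT) and Wasf1 (3.77 for iWAT over BAT). Wasf1 was 0.568 RPKM in iWAT and 0.271 RPKM in eWAT on average, but only 0.0134 to 0.0420 RPKM in BAT. Its fold is therefore uncertain, as for Pkib, although its calls are among the counts above.

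Of the 7 PKA substrates of adipocytes, all tested, 5 were higher in iWAT than in eWAT (median log2FC 1.23), led by Plin5 (1.67) and Plin1 (1.63), which coat lipid droplets. Lipe, hormone-sensitive lipase, was 192.8 ± 28.7 RPKM in iWAT and 70.0 ± 29.0 RPKM in eWAT (SD, n = 6). Ptpn1, a tyrosine phosphatase, was higher in eWAT (log2FC -1.36), and Sik1 did not pass. Against BAT, 2 were higher in iWAT (Sik1 and Ptpn1) and 4 in BAT, and 2 were higher in eWAT (Ptpn1 and Sik1) and 5 in BAT. Without scaling these became 6 and 1 with iWAT, and 2 and 4 with eWAT. Plin5 was furthest toward BAT, at 71.7 ± 10.5 RPKM against 5.46 ± 1.33 RPKM in iWAT and 1.73 ± 0.717 RPKM in eWAT (SD, n = 6). Plin1 and Lipe are also on the adipocyte marker list.

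Other effectors of cAMP were scarce. Of 5 genes, 3 were tested, all higher in iWAT than in eWAT. Popdc2, a Popeye protein that binds cAMP, was 1.23 RPKM in iWAT, 0.266 RPKM in eWAT and 4.06 RPKM in BAT on average, and Rapgef3, the exchange factor EPAC, was 3.63, 1.20 and 2.80 RPKM. In eWAT against BAT all 3 were higher in BAT, and in iWAT against BAT this held for Popdc2 (log2FC -2.33), while Rapgef3 was called higher in iWAT without scaling (edgeR adjusted p = 0.00423). The row of Popdc2 overlaps that of a joint transcript with Cox17.

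Of the other regulators of the kinase, Prkx, a kinase related to the catalytic subunits, was higher in eWAT than in iWAT (log2FC -1.20), at 20.3 ± 2.87 RPKM against 8.77 ± 1.61 RPKM (SD, n = 6). On average it was above Prkacb in eWAT (13.2 RPKM for Prkacb) and also in iWAT (7.91 RPKM for Prkacb), where the libraries overlapped. Pja2, a ubiquitin ligase that removes regulatory subunits, was higher in iWAT (log2FC 0.40), and both were higher in the white depots than in BAT. Of 4 genes, 3 were tested in the comparisons with iWAT and 2 in eWAT against BAT, and 1 of the 3 did not pass in each comparison with iWAT.

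CREB relatives, coactivators and their kinases counted 10 genes. Between the white depots, 2 were higher in iWAT (Sik2, log2FC 1.23, and Sik3, 0.20), 2 were higher in eWAT (Atf1, -0.62, and Ep300, -0.28) and 6 did not pass. Against BAT, 3 were higher in iWAT and 2 in BAT, and 5 were higher in eWAT and 2 in BAT. Without scaling, 10 and 9 were higher in the white depots, and 0 and 1 in BAT. Sik2 and Sik3, which restrain the coactivators of CREB until PKA phosphorylates them, were the 2 toward BAT with TMM scaling. Sik1 (log2FC 1.09 and 1.11) was furthest toward the white depots, followed by Crem (0.48) in iWAT and Atf1 (0.78) in eWAT.

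Of the 10 genes known to be induced by cAMP, 2 were higher in iWAT (Ppargc1a and Fos) and 3 in eWAT, with Nr4a3 (log2FC -1.23) and Nr4a1 (-0.55) furthest, and 5 did not pass. Fos and Junb, transcription factors, were furthest toward the white adipocytes against BAT. Fos was 457.6 ± 82.4 RPKM in iWAT, 327.3 ± 40.9 RPKM in eWAT and 1.51 ± 1.29 RPKM in BAT, and Junb was 338.4 ± 75.0, 332.9 ± 38.4 and 5.51 ± 2.36 RPKM (SD, n = 6). The white cells alone went through collagenase digestion, which cannot be told apart from depot here. The other members higher in a white depot had smaller differences, from a log2FC of 3.28 for Nr4a3 in eWAT to 0.28 for Crem in eWAT, and Per1 did not pass in iWAT (edgeR adjusted p = 0.0651). Furthest toward BAT were Ppargc1a, a coactivator of mitochondrial genes, at 0.821, 0.257 and 6.62 RPKM and Dio2, which activates thyroid hormone, at 0.804, 0.800 and 10.2 RPKM on average. In all, 7 were higher in iWAT and 2 in BAT, and 8 were higher in eWAT and 2 in BAT. Without scaling the counts were 8 and 2 in both comparisons. Sik1, Sik2 and Crem stand on more than one of these lists, and Ppargc1a is also a brown adipocyte marker. Rows of Nbea, Ezr, Sik2, Per1 and Junb overlap rows of other named genes, which makes their counts uncertain. The same holds for some listed genes not mentioned above, such as Lrba and Gskip.

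**Figure D5:**
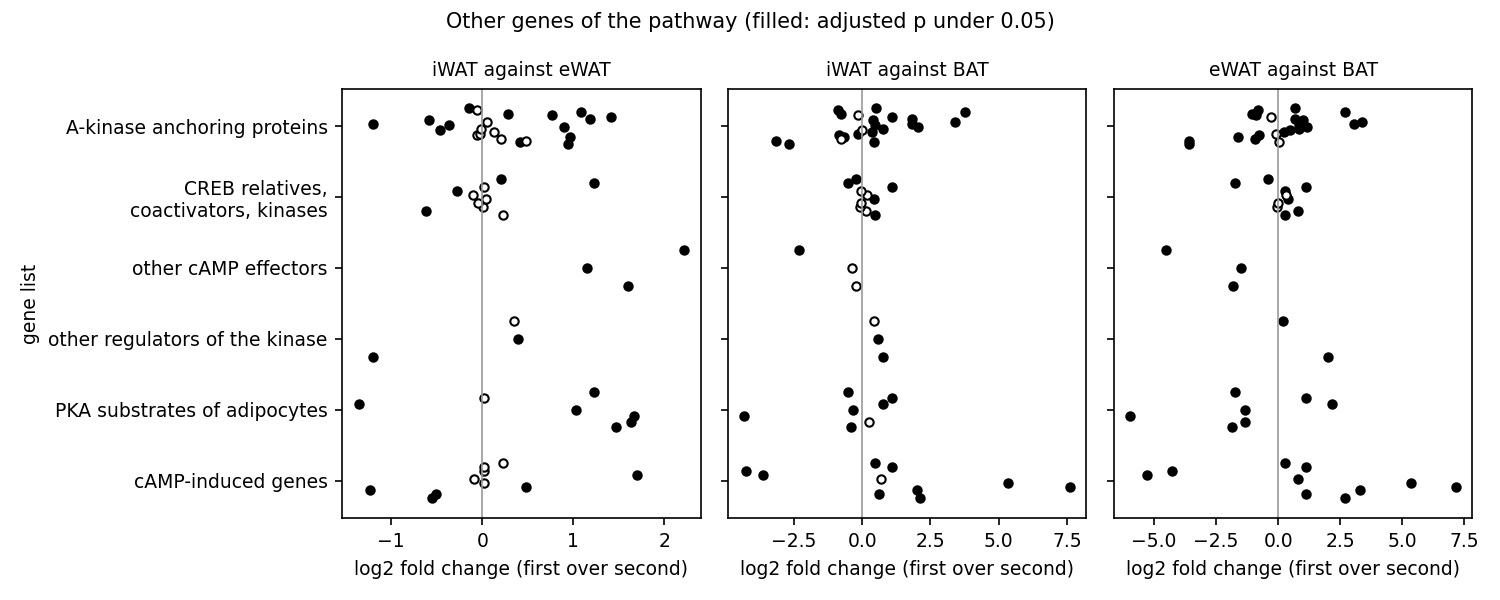
Log2 fold change, first tissue over second, of the tested genes of the 6 pathway lists, each point a gene and filled where the adjusted p was under 0.05. A-kinase anchoring proteins spread to both sides in each comparison, and the cAMP-induced genes reach 7.62 (Fos) and -4.26 (Dio2) in iWAT against BAT.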

How the data were processed

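Tissue labels set the groups of the 18 libraries. Their strain label gives C57BL/6, the extraction notes C57BL/6J and a note of the study, which also gives the age, C57BL/6NTac. The titles and the design give the HFD. From RNA of high integrity, the authors prepared NEBNext Ultra libraries and mapped reads to mm9. The submitters' processing notes name cutadapt 1.16 and HISAT2 2.1.0. The counting program, the annotation and the treatment of reads that map to several places are not given in the sources used here. Per row, the authors deposited a read count, a whole number, and an RPKM computed from it. Where rows shared a symbol, that of the highest mean RPKM stood for it.

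Counts were tested with edgeR 4.0.16 (glmQLFit and glmQLFTest, TMM, two-sided) in R 4.3.3, each comparison on its own 12 libraries, where the mean count reached 10. Calls were made at 0.05 on p-values adjusted by Benjamini-Hochberg over all genes tested. The SE was derived from the F statistic. RPKM ratios were tested by exact permutation. A note of the study gives n = 6 per group of mice, and the labels tie no library to an animal. The p-values measure the spread between these libraries. No libraries agreed within sampling noise. Pkib has a mean count under 10 in BAT and was left out of counts of calls there. Depth also limits Prkar1b, and counts cover counting error only.

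The members and lists were chosen with earlier results of these data known. Named genes were all 10 members, the 2 called genes of each list furthest in each direction, and the 2 genes most like each member. Other genes were named after their values were seen. On simulated counts, changes of 2-fold were recovered for 81 of 99 genes in iWAT against eWAT, 79 of 99 in iWAT against BAT and 77 of 99 in eWAT against BAT. Changes of 1.5-fold were recovered for 50 of 100, 47 of 98 and 39 of 99 genes, and 4.38, 1.56 and 8.66% of calls were false. The simulations gave only 137, 128 and 127 calls, against 13454, 14864 and 16561 in the data. They therefore do not test the scaling against BAT. Alternatives were DESeq2 1.42.0, limma 3.58.1 on log2(RPKM + 0.1) and log2(RPKM + 1), no scaling, no filter, summed rows, all 18 libraries in 1 fit, lane as a covariate, a test against a log2FC of 1, the sample number as a block, and leaving out each library. The last was chosen after seeing the data, as was a fit on the 8 libraries whose numbers both tissues share. Coding bases and exons came from GENCODE vM1 on mm9. Scripts ran in Python 3.11.15 with scipy 1.17.1, pandas 2.3.3 and numpy 2.4.6, and plots were drawn with matplotlib 3.10.9.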

Additional observations from a re-analysis of the deposited data

Results flagged for a closer look

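Prkar2a in iWAT adipocytes held a single value apart from the others: sample 3 had 10.87 RPKM, and the other 5 samples lay within 10.03 to 10.27 RPKM. It was the only such value among 30 groups of 6 samples, of which chance alone would mark about 1 in 20. Leaving out that sample changed no call of Prkar2a.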

How the results depend on the processing

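Outside the samples left out in turn, the alternatives gave 253 results on the same side of the test or within the spread, 28 weaker, 10 stronger and 9 of opposite sign; limits of the data are the design (depot, preparation and lane with BAT). Those of opposite sign were all against BAT. With iWAT, the log2FC of Prkacb turned to 0.50 and 0.44 with limma on log2(RPKM + 0.1) and log2(RPKM + 1) and to 0.76 without scaling, where Prkaca turned to 0.13 and Prkar2b to 0.0426. With eWAT, Prkar1b turned to 0.37, 0.13 and 0.77 under the same 3 settings, and Pkia to 0.0022 without scaling. The cause was not tested. Against a log2FC of 1, genes called dropped to 2192 of 19623 (iWAT against eWAT), 5765 of 19745 (iWAT against BAT) and 8180 of 20076 (eWAT against BAT). Members called dropped to 2, 1 and 3, of which Pkib was 1 against BAT in each case. Between the white depots the 2 were Pkia and Pkib, and Prkar2b did not pass (edgeR adjusted p = 0.107). By read counts without length, Prkar2b made up 72.4% of the regulatory genes in iWAT, 42.9% in eWAT and 84.9% in BAT, and Prkaca 65.3, 38.6 and 74.3% of the catalytic genes in iWAT, eWAT and BAT. Leaving out each library in turn kept 352 results, weakened 7, all of Prkar1b between the white depots (a call that limma lost as well, adjusted p = 0.102 and 0.0917), and strengthened 1, Prkar1b of iWAT against BAT without iWAT sample 16 (log2FC 0.51). The fit with the sample number as a replicate block used only the 8 libraries of shared numbers in each comparison with BAT. It called 12836, 12544 and 15143 genes, and the only member call that changed was Prkar1b between the white depots (log2FC 0.50, edgeR adjusted p = 0.0534). Same-numbered libraries did not deviate together: correlations were -0.28 to 0.54 over 6 pairs of white libraries, -0.15 to 0.11 over 4 pairs of iWAT and BAT and -0.06 to 0.07 over 4 of eWAT and BAT. A library correlated best with its own number in 1 of 6, 1 of 4 and 1 of 4 cases.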

Other observations

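The remaining members had close companions too, by the same likeness of log2(RPKM + 0.1) over the 18 libraries and with the same limit that the points share 3 tissues. Prkar2a ran with Prep, a prolyl peptidase (Pearson r = 0.997), and Pdia4, a chaperone of the endoplasmic reticulum (r = 0.996), which was 22.6, 29.1 and 6.50 RPKM in iWAT, eWAT and BAT on average. Prkar1a was closest to Eif5a2 (r = 0.989) and a row known by its Ensembl number alone (r = 0.988), and Creb1 to Fam116a (r = 0.989) and Fgl2 (r = 0.986). Pkig was closest to Ralb, a small GTPase (r = 0.984), and Maml1, a coactivator of Notch (r = 0.981). Prkacb ran with LOC640611 (r = 0.987) and Aftph (r = 0.986), and Pkia with Gcap14 (r = 0.975) and Mpdz, a scaffold protein (r = 0.973). The weakest likeness was that of Prkar1b, whose closest genes were Tnfaip8l1 (r = 0.927) and Abcg2 (r = 0.920).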
